A study of Homo sapiens with 6 samples.

Results

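The lysosomal cathepsins are the proteases that break down proteins in the acidic lysosome. The 10 genes described here were taken by name. CTSS was selected on its lower counts in the siANXA1 than in the siControl libraries, and CTSA, CTSB, CTSC, CTSD, CTSF, CTSH, CTSL, CTSO and CTSZ were added as its relatives among lysosomal proteases. They are 10 of 58735 genes in the table, with 121 annotated transcripts, and 9 of them were among the 17947 genes tested. The exception, CTSO, was listed at 0 counts in every library.

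The data were RNA-seq counts of human cells labelled CCRF-SB and B-ALL (B-cell acute lymphoblastic leukaemia), an established lymphoblast-like line from peripheral blood, at day 5. The 3 siControl libraries (genotype WT) came from cells given an empty vector, and the 3 siANXA1 libraries (genotype ANXA1 down-regulated) from cells carrying a lentivirus with an ANXA1-silencing RNA and selected with puromycin. Both groups grew in RPMI-1640 with FBS; the labels name puromycin for the silenced cells and do not say whether the controls were selected too. The labels do not say whether replicates were separate cultures, so each p-value measures only the spread between these libraries, which may be technical.

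Library totals over annotated genes were 21333951 to 44148505 counts, the lowest in siANXA1 replicate 2. ANXA1 itself read 3687 to 3752 CPM (counts scaled to a common library size) in siControl and 1605 to 1721 CPM in siANXA1, a log2 fold change of -1.14 with an edgeR adjusted p of 0.0571. Markers of the labelled B cell type were low, with 12 genes summing to 11.05 to 15.97 CPM in siControl and 7.28 to 11.3 CPM in siANXA1, and VPREB1, IGLL1 and DNTT at 0. The 13 erythroid markers summed to 2051 to 3547 CPM in siControl and 5812 to 7156 CPM in siANXA1. The first principal component of all genes set siControl replicates 1 and 2 beside siANXA1 replicate 2, apart from the other 3 libraries, and so cut across the groups. In siANXA1 replicate 2 the mitochondrial gene MT-ND4 read 43.7 CPM, against at least 11198 CPM elsewhere.

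Cathepsins are made as inactive precursors, carried to the lysosome by mannose 6-phosphate receptors, and switched on there by low pH and by other proteases. Most are cysteine proteases of the papain family, in which a cysteine in the active site attacks the peptide bond, whereas cathepsin D is an aspartic protease and cathepsin A a serine carboxypeptidase. Cystatins and some serpins hold the papain-family members in check. In B cells, macrophages and dendritic cells, cathepsin S cuts the invariant chain that blocks the groove of MHC class II molecules.

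The codons around the active-site cysteine show how alike the cysteine cathepsins are at their core and how far their transcripts differ, which bears on whether reads of different members can be told apart. Each line gives 45 coding bases, 5′ to 3′, from the coding transcript with the most counts (for CTSO the longest), with the cysteine codon in capitals (GENCODE release 29, GRCh38).
CTSS: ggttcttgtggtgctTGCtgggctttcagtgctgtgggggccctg
CTSL: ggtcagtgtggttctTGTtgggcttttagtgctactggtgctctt
CTSH: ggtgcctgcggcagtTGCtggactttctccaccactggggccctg
CTSO: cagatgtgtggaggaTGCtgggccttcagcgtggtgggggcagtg
CTSC: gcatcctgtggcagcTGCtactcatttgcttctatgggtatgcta
CTSF: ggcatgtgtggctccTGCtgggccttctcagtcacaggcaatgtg
CTSZ: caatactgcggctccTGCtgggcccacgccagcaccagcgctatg
The CTSS codon lies on chromosome 1 from 150751991 to 150751993, on the minus strand, in exon 5 of 8 of ENST00000368985, as codon 139 of 331. The other genes lie at chr9:87725519-87731393 (CTSL, plus strand), chr15:78921058-78949574 (CTSH, minus), chr4:155924118-155953917 (CTSO, minus), chr11:88293592-88337787 (CTSC, minus), chr11:66563463-66568841 (CTSF, minus) and chr20:58995185-59007247 (CTSZ, minus). The aspartic and serine proteases lie at chr11:1752752-1764573 (CTSD, minus) and chr20:45890144-45898820 (CTSA, plus). Against the CTSS window, CTSL had 33 of 45 bases identical, CTSH and CTSO 30, CTSC and CTSF 24 and CTSZ 20. Over whole transcripts, no 50-base stretch of the main CTSB, CTSC, CTSF, CTSH, CTSO or CTSZ transcript occurred in a transcript of another gene, and in CTSS 0.419% and in CTSL 0.752% of such stretches did, those of CTSL in its pseudogenes. CTSD shared 60.6% with the overlapping gene AC068580.4 (mean 2.96 CPM), so part of its reads could be assigned to either. In CTSA 14.2% lay opposite PLTP or AL008726.1 on the other strand, and with the strand setting not given those reads cannot be told apart.

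Levels between members were compared per length, as each transcript's count divided by its length, summed per gene and scaled to the same total in every library. CTSC, the dipeptidyl peptidase that activates granule serine proteases, had the highest level per length, 219 ± 35.1 (SD, n = 6), with a range of 186 to 269.5, and it was the highest member in every library. Its range did not overlap that of CTSL, the next in the order, but CTSB reached 202 in siControl replicate 2. CTSL, an endopeptidase (149 ± 15.0), CTSZ, a carboxypeptidase (139 ± 34.7), CTSB, which cuts both within chains and from their ends (135 ± 42.7), and CTSH, an aminopeptidase (130.4 ± 39.9), followed. Their ranges overlapped, and none of these 4 differed from its neighbour in the order beyond the spread: CTSL was above CTSZ in 4 of 6 libraries and CTSZ above CTSB in 3 of 6.

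CTSD (60.8 ± 10.3) and CTSA (34.2 ± 7.07) each formed a step of their own, without overlap with the genes above or below. CTSF, a widely expressed endopeptidase (6.09 ± 2.72), and CTSS (4.61 ± 2.68) were the lowest of the detected members and overlapped each other. CTSF was above CTSS in 5 of 6 libraries, siControl replicate 3 being the exception. CTSO had 0 counts, which allows at most 0.0680 CPM in the deepest library and 0.141 CPM in the shallowest (3 counts per library, for counting error only). An estimated count of exactly 0 in all libraries can also be a failed estimate.

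**Figure D1:**
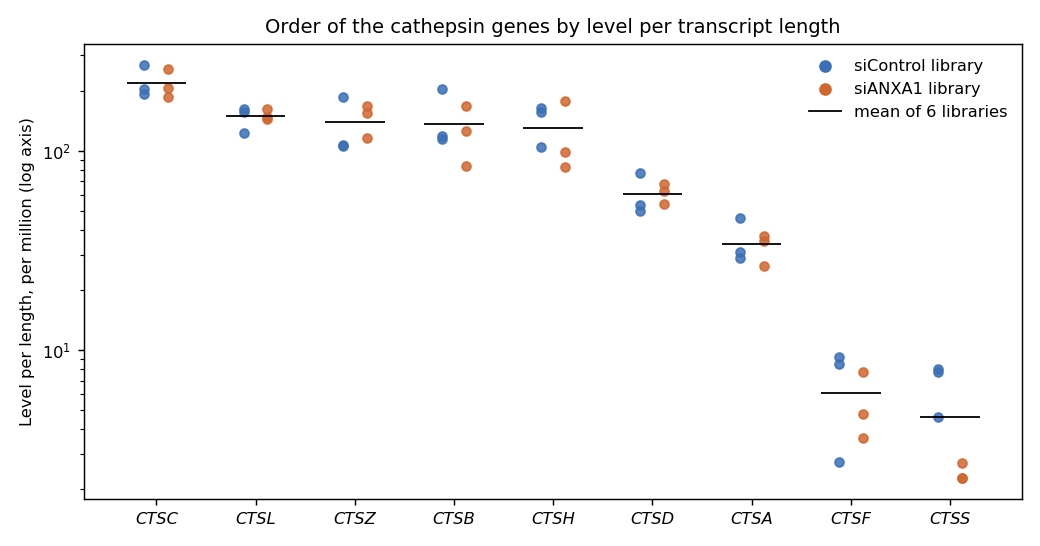
Level per transcript length (log axis) of the 9 detected cathepsin genes, with 1 point per library and a line at the mean of 6 libraries. CTSC has the highest mean, CTSL, CTSZ, CTSB and CTSH share a range, and CTSF and CTSS lie lowest.

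The levels per length of the 10 genes together summed to 897 ± 33.8 in siControl and 860 ± 62.6 in siANXA1 (SD, n = 3). These per-length sums differed by less than the spread within siANXA1. CTSC held 20.8% to 29.9% of the per-length sum and CTSS 0.254% to 0.904%. In CPM, the scale of the group comparisons below, the genes summed to 970 to 1018 in siControl and 861 to 946 in siANXA1. The CPM sums were thus lower in siANXA1 without overlap. They include CTSS, and their difference was not tested.

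CTSS was the reason for looking at this family, so its group difference is given as a description with no test. CTSS occupies chr1:150730196-150765957 on the minus strand (GRCh38). Its level was 16.9, 18.5 and 10.5 CPM across siControl replicates 1 to 3, against 6.46, 5.11 and 5.24 CPM across siANXA1 replicates 1 to 3. The same order of libraries is kept for every gene below. All 3 siANXA1 libraries lay below all 3 siControl libraries, with siControl replicate 3 between the other siControl libraries and the siANXA1 ones. The means were 15.3 ± 4.21 and 5.60 ± 0.745 CPM (SD, n = 3), so that 36.6% remained, and the log2 fold change was -1.45 ± 0.29 (SE). In counts this was 706, 747 and 352 against 281, 112 and 192.

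Nearly all CTSS counts came from the full-length coding transcript ENST00000368985, 4107 bases long, which held 98.6% or more of the gene's counts in each library. The lower gene sums were thus lower counts of that transcript. Leaving out any 1 library gave log2 fold changes from -1.66 to -1.30. In bulk RNA, fewer cells that express a gene and less of its RNA per cell cannot be told apart.

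CTSS is typical of macrophages and other antigen-presenting cells, so their markers are given beside it. The 13 monocyte and macrophage markers summed to 38.3 to 52.6 CPM in siControl and 38.7 to 43.6 CPM in siANXA1, with overlap between the groups. Most of that sum was LYZ, lysozyme (37.2 ± 4.31 and 36.3 ± 2.75 CPM), and CD163 was at 0. Without LYZ, a sum added after the values were seen, the other 12 markers read 6.04 to 12.3 CPM in siControl and 4.05 to 5.25 CPM in siANXA1, lower there without overlap, as CTSS was. Of the 7 tested, 6 had negative log2 fold changes, the median was -0.89 (-1.23 to -0.76 when a library was left out), and 0 passed edgeR. ITGAM, an integrin subunit of myeloid cells, read 3.37, 3.79 and 2.03 CPM against 1.59, 1.00363 and 1.31 CPM (edgeR adjusted p = 0.605). It was the only 1 of the 7 whose groups did not overlap, beside 14.7% of all genes tested. AIF1, more abundant than ITGAM (mean level per length 7.47 against 1.58), overlapped between the groups. It was higher in siControl replicates 1 and 2 and siANXA1 replicate 2 than in any other library. The 10 T and NK cell markers summed to 11.5 to 38.7 CPM in siControl and 15.5 to 23.6 CPM in siANXA1, with all 3 tested negative (median -0.69) and CD2, CD8A and KLRD1 at 0. CD3D stood far above the rest, with a mean level per length of 49.1 against 1.43 for NKG7, the next. CD3D too was higher in siControl replicates 1 and 2 and siANXA1 replicate 2 than in any other library. The 8 neutrophil markers summed to 1.62 to 7.23 CPM and 1.55 to 3.19 CPM, with both tested genes negative (median -0.89) and CAMP, DEFA3 and S100A12 at 0. The B cell marker sums above were lower in siANXA1 with some overlap, and the erythroid sums were higher without overlap. Their part in the CTSS difference was not tested.

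Its nearest relative on the chromosome, CTSK, the collagen-degrading protease of osteoclasts, lies 30250 bases away with 0 protein coding genes between them. CTSK read 4.11, 3.72 and 1.91 CPM in siControl and 2.32, 1.32 and 1.69 CPM in siANXA1, overlapping in siControl replicate 3 (log2 fold change -0.86 ± 0.40, SE; edgeR adjusted p = 0.644). Of the 4 further cathepsin genes, CTSG was at 0, and CTSE, CTSV and CTSW averaged 0.0914, 0.166 and 0.0724 CPM.

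**Figure D2:**
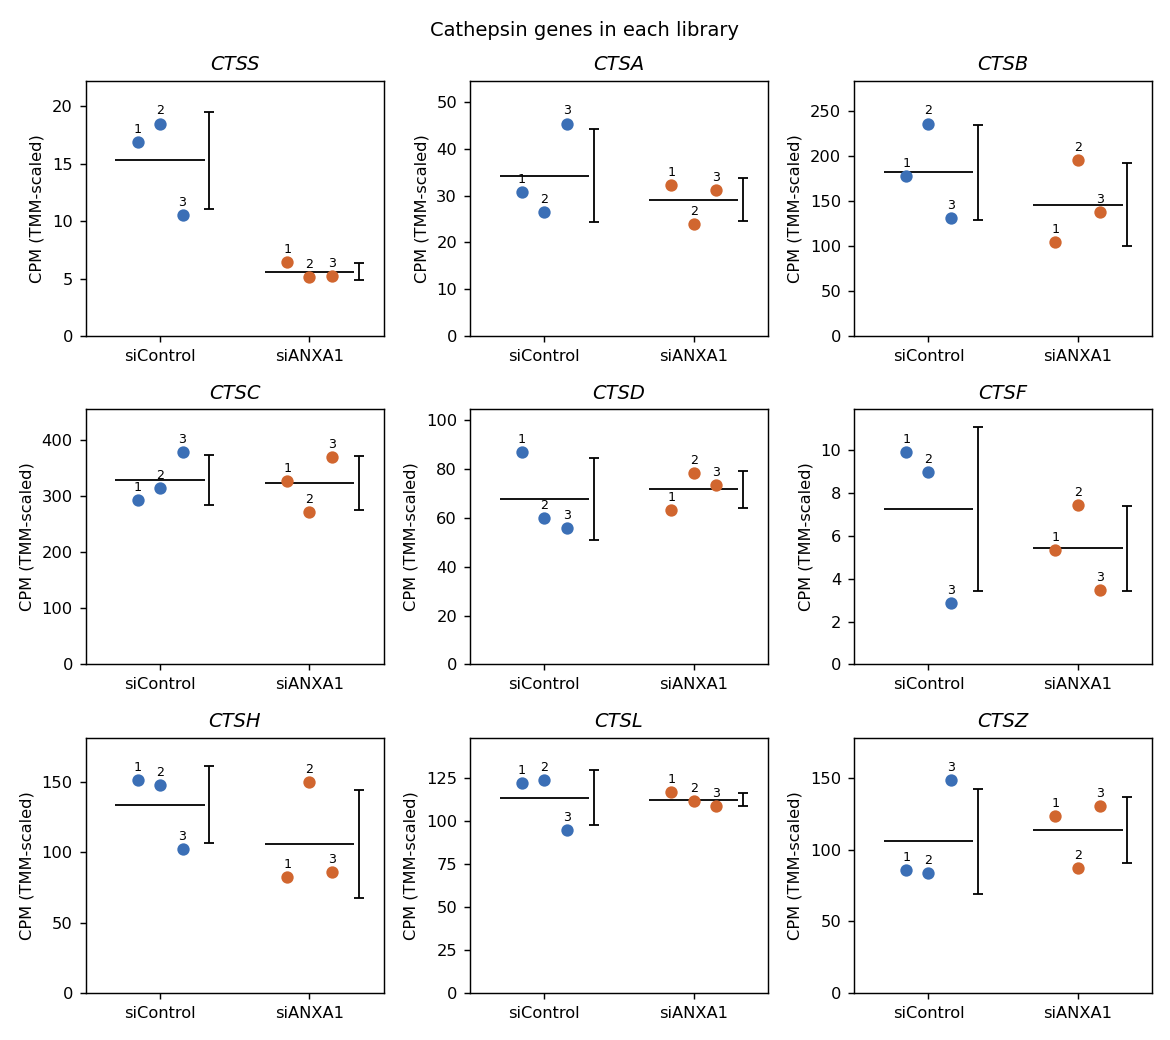
CPM of the 9 detected cathepsin genes in each library (vertical axes from 0), with replicate numbers beside the points, a line at each group's mean and a bar of 1 SD (n = 3). The groups do not overlap for CTSS, and they overlap for the other 8 genes.

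Among the 9 tested members, edgeR called 0 at an adjusted p under 0.05, beside 0.0111% of all genes tested (2 genes). At an unadjusted p under 0.05 it marked 1, CTSS, beside 7.93% of all genes. DESeq2 called 1, again CTSS, beside 1.67% of all genes with an adjusted p. Since CTSS was chosen on this contrast, neither is a test of it and nothing is read from them. limma-voom called 0, beside 0.0167%. The groups did not overlap in 1 of the 9, CTSS, which the choice of that gene had fixed, beside 14.7% of all genes tested (7.24% lower and 7.42% higher). Of the fold changes, 7 were negative and 2 positive with a median of -0.23, and without CTSS 6 of 8 were negative with a median of -0.13; over all genes 49.5% were negative and the median was 0.01. The median of the 9 lay between -0.18 and -0.09 when any 1 library was left out, nearer to 0 each time. None of these shifts exceeded the spread between libraries (SD 0.14). Under the other alternatives the median ranged from -0.36 to -0.18.

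CTSB read 177.5, 236 and 131.5 CPM in siControl and 104, 195.6 and 138 CPM in siANXA1. The groups overlapped widely, and the log2 difference of -0.32 ± 0.31 (SE) did not pass (edgeR adjusted p = 0.785). It was -0.09 without siControl replicate 2 and -0.58 without siANXA1 replicate 2. CTSB is on chromosome 8, is the best-known lysosomal cysteine protease, and can leak into the cytosol when lysosomes rupture. CTSH read 151, 148 and 102 CPM against 82.0, 150.1 and 85.8 CPM, and the log2 fold change was -0.34 ± 0.29 (SE, with an adjusted p of 0.769 by edgeR). Its high value in siANXA1 replicate 2 matched siControl replicates 1 and 2, and without that library the CTSH groups did not overlap and the log2 fold change was -0.67; without siANXA1 replicate 1 it was -0.18. CTSF read 9.91, 8.97 and 2.87 CPM against 5.33, 7.44 and 3.49 CPM (-0.42 ± 0.52, SE; edgeR adjusted p = 0.819), the widest relative spread within a group. Its log2 fold change was -0.14 without siControl replicate 1 and -0.81 without siControl replicate 3.

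CTSZ, also called cathepsin X, read 85.6, 83.5 and 148 CPM in siControl and 124, 87.1 and 130.3 CPM in siANXA1. Here siControl replicate 3 was the highest library and siControl replicates 1 and 2 the lowest, and the log2 fold change was 0.10 ± 0.29 (SE; edgeR adjusted p = 0.922). CTSC read 293, 313.5 and 378 CPM against 327, 272 and 369 CPM, and the log2 fold change was -0.02 ± 0.17 (SE; edgeR adjusted p = 0.971). CTSL was the steadiest member, at 122, 123 and 94.8 CPM against 116.5, 111 and 109 CPM. Its highest library was 1.30 times its lowest, and its log2 fold change was -0.02 ± 0.16 (SE; edgeR adjusted p = 0.981).

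The members outside the papain family also overlapped between the groups. CTSD read 86.9, 59.9 and 55.9 CPM in siControl and 63.3, 78.2 and 73.5 CPM in siANXA1 (log2 fold change 0.08 ± 0.22, SE; edgeR adjusted p = 0.915). CTSA, which also protects the lysosomal enzymes beta-galactosidase and sialidase in a shared complex, read 30.7, 26.6 and 45.4 CPM against 32.3, 23.996 and 31.1 CPM (-0.23 ± 0.26, SE; edgeR adjusted p = 0.803). A p that misses the threshold does not show that these levels were equal.

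**Figure D3:**
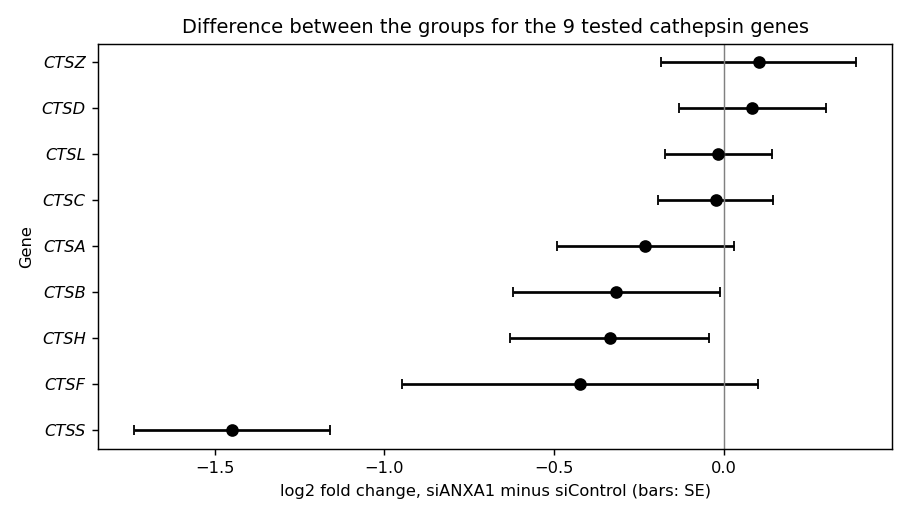
Log2 fold change of siANXA1 against siControl for the 9 tested cathepsin genes, with bars of 1 SE. CTSS stands at -1.45 and the other 8 lie between -0.42 and 0.10.

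Many members divided the libraries the way the first principal component does. CTSB, CTSH and CTSF were each higher in siControl replicates 1 and 2 and siANXA1 replicate 2 than in any of the other 3 libraries, and CTSZ, CTSC and CTSA were each lower there. That made 6 of 9 members, beside 39.8% of all genes tested. The component was computed from all genes, these included, so part of this is built in. DDIT4, which stress induces and which restrains mTOR, showed the same division with 1434 to 2276 CPM against 108 to 189 CPM. No label names a batch for these libraries, and the part of this division in the group differences was not tested.

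As a description over 6 libraries that share depth and composition, CTSB and CTSH varied together (Pearson r = 0.90 of log2 CPM), as did CTSC and CTSZ (0.89). CTSF and CTSZ ran opposite (-0.96), as did CTSH and CTSZ (-0.88). CTSS followed neither side closely, but its r was positive with CTSB (0.49), CTSF (0.48) and CTSH (0.54). With CTSZ, CTSC and CTSA, CTSS had r of -0.42, -0.10 and 0.11. Its 5 nearest patterns among 9847 protein coding genes at 5 CPM or more were those of SPRY4, an inhibitor of receptor tyrosine kinase signalling (r = 0.995), ZNF764, EIF2S3, a subunit of the translation initiation factor eIF2, PYROXD1 and MAP3K12 (0.991 to 0.995). SPRY4 read 61.8, 61.4 and 40.2 CPM in siControl and 26.3 CPM or less in every siANXA1 library. It was picked for its likeness to CTSS, itself chosen for its fall, so this split between the groups is built in.

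For CTSC the nearest patterns were PSMC5, a proteasome ATPase (r = 0.989), DOK3 and SLC35B4 (both 0.982), and for CTSL they were MDH1, malate dehydrogenase (0.996), ALAD, a heme synthesis enzyme (0.995), and COQ9 (0.989).

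**Figure D4:**
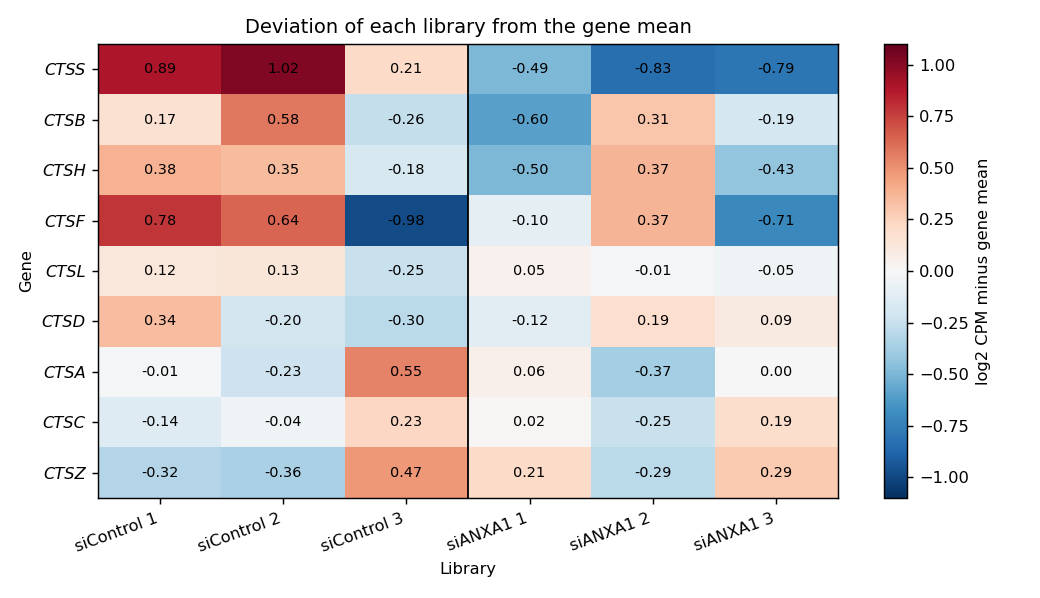
Deviation of each library from the gene's mean log2 CPM (colour and printed value), with siControl libraries left of the line and siANXA1 libraries right of it. CTSS is positive in all siControl and negative in all siANXA1 libraries, while CTSB, CTSH and CTSF are positive and CTSC and CTSZ negative in siControl 1, siControl 2 and siANXA1 2.

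Start regions are shown for 5 members: CTSF and CTSH, which were high in siControl replicates 1 and 2 and siANXA1 replicate 2, CTSZ and CTSA, which were low there, and CTSD, which did neither. Many lysosomal genes carry an E-box near their start, the letters CACGTG, which TFEB and its relatives can bind, and GC boxes, the letters GGGCGG, are bound by Sp1-type factors. Each line holds 300 bases, most of them before the start of the gene and the last few after it (RefSeq, GRCh38.p14), with both motifs, on either strand, in capitals.
CTSF: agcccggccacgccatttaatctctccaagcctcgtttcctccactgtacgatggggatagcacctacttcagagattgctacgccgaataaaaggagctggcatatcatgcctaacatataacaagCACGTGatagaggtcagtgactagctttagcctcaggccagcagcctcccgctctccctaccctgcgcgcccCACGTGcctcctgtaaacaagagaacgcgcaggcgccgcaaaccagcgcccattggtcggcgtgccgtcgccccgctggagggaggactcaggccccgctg
CTSH: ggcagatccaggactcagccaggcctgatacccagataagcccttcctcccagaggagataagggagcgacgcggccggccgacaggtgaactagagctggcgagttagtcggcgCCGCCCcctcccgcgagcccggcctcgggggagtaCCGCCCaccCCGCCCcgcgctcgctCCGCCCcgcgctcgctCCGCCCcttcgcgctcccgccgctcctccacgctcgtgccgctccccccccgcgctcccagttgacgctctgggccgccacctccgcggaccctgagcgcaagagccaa
CTSZ: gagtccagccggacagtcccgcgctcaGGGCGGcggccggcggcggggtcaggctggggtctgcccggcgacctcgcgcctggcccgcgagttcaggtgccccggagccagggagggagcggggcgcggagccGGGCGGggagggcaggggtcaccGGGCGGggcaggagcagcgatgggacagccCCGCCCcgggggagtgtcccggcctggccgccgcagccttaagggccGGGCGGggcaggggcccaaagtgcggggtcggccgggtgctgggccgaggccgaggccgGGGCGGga
CTSA: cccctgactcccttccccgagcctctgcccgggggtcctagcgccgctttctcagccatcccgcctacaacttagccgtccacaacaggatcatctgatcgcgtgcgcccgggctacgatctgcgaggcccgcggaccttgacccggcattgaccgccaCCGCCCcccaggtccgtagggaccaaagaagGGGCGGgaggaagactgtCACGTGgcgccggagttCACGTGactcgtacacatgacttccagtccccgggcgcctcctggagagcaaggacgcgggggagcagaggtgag
CTSD: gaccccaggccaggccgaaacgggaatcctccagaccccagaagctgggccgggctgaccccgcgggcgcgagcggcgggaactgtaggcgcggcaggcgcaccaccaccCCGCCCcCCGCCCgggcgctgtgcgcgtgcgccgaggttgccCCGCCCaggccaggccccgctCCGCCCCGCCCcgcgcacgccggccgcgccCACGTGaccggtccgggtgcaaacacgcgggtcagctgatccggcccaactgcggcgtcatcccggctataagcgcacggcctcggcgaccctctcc
The regions are chr11:66568557-66568856, chr15:78944997-78945296 and chr20:59007205-59007504 on the minus strand for CTSF, CTSH and CTSZ, chr20:45891085-45891384 on the plus strand for CTSA, and chr11:1763878-1764177 on the minus strand for CTSD. The E-box letters occurred in CTSA (42 and 25 bases before the start), CTSD (47 bases before) and CTSF (123 and 51 bases before), and not in the windows of CTSC, CTSH, CTSL or CTSZ. Among all 35116 start regions of 300 bases, 7.26% held CACGTG and 45.0% held GGGCGG. The GC box occurred 6 times in CTSZ, 5 times each in CTSD and CTSH, 3 times in CTSL, 2 times in CTSA and 1 time in CTSC. Members with and without an E-box in the window were found on both sides of the division between libraries. Entries for 7 of the 10 members matched the table; CTSS, CTSB and CTSO did not.

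At the level of transcripts, the estimates for CTSB moved between near-identical isoforms. The coding transcript ENST00000533455 had 3034, 7614 and 2196 counts in siControl replicates 1 and 2 and siANXA1 replicate 1 and 2 or 3 counts in the other libraries. ENST00000534510 had 3196, 2991 and 3832 counts in those other libraries (siControl replicate 3 and siANXA1 replicates 2 and 3) and at most 2 elsewhere. Of the 50-base stretches of ENST00000533455, 92.2% also occur in ENST00000534510. The gene's sum is the measure used above, since the most abundant transcript alone gave CTSB a log2 fold change of -2.38 where the sum gave -0.32.

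CTSH held many counts in non-coding forms. Coding transcripts had 45.5% to 57.9% of its counts, and transcripts marked for nonsense-mediated decay had 17.0% to 40.6%, lowest in siControl replicate 3 (21.8%) and siANXA1 replicate 3 (17.0%). In CTSF the retained-intron share was 43.75% in siControl replicate 3 and 57.0% in siANXA1 replicate 3, against 10.8% to 20.2% elsewhere, on 96 and 128 counts in those 2 libraries. CTSC carried 20.8% to 30.0% of its counts in retained-intron transcripts, and CTSL 27.6% to 42.0% in a processed transcript. CTSS, CTSD and CTSB were almost wholly coding, at 92.4% or more in every library.

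The substrates and partners of the members were looked at next, by lists that also were set with earlier results known. RNA of the best-known cathepsin S substrate was scarce: CD74, the invariant chain, had 0.645 ± 0.227 CPM (siControl) and 0.354 ± 0.148 CPM (siANXA1). The 12 genes of MHC class II and invariant chain, CD74 included, together summed to 5.60 to 7.80 CPM. HLA-DOB and HLA-DMA were the highest per length among those tested. Likewise, the 11 granule proteases that cathepsin C activates summed to 0.273 to 4.66 CPM, with GZMA, GZMB and CTSG at 0. Of 3 tested, AZU1, azurocidin, had 4 to 60 counts a library and read 1.29, 1.49 and 1.11 CPM against 0.0919, 0.365 and 0.109 CPM (edgeR adjusted p = 0.574), and PRTN3 and GZMM overlapped between the groups. Neither partner of cathepsin A passed: GLB1, beta-galactosidase, read 81.5 ± 6.03 and 62.2 ± 1.93 CPM (edgeR adjusted p = 0.625), and NEU1, sialidase, 13.7 ± 3.91 and 19.1 ± 0.475 CPM (edgeR adjusted p = 0.663). LGMN, the asparaginyl protease that can activate cathepsins, averaged 0.236 CPM.

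In the list set as cathepsin inhibitors, which mixes cystatins and serpins, 6 of 14 were tested and 0 passed. Of these, 5 were negative, with a median log2 fold change of -0.31 (-0.52 without siControl replicate 3). Whether the serpins named here act on the members was not tested. SERPINB6 read 203, 189 and 153 CPM in siControl and 132, 149.6 and 131.5 CPM in siANXA1 without overlap (edgeR adjusted p = 0.627). CST3, cystatin C, stood at 63.2 ± 12.3 and 54.7 ± 8.04 CPM, and SERPINB1, a neutrophil elastase inhibitor, at 177 ± 66.5 and 104 ± 31.5 CPM. Among the 17 tested genes of sorting to lysosomes, 0 passed and 8 were negative, with a median of 0.14 that turned to -0.09 without siControl replicate 2. AP1S1, an adaptor subunit, stood at 68.7 ± 23.1 and 85.4 ± 18.3 CPM, and the retromer genes VPS29 and VPS26A at 47.0 ± 11.3 against 55.7 ± 14.1 CPM and at 141.5 ± 40.9 against 115.5 ± 15.4 CPM.

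In the rest of the lysosome, 74 tested genes in 4 lists gave 0 calls, with 43 negative and a median of -0.11, against 49.5% negative and 0.01 over all genes. The groups did not overlap in 18 of the 74, 11 lower and 7 higher, beside 14.7% of all genes (7.24% lower and 7.42% higher). Of these 18, 13 were glycosidases, lipases or sulfatases, 7 lower and 6 higher. The 18 genes of membrane, activator and cholesterol proteins had 15 negative and a median of -0.19 (-0.31 without siANXA1 replicate 2). LAPTM5, a lysosomal membrane protein of blood cells, read 817, 827 and 540 CPM against 391, 410 and 398 CPM (edgeR adjusted p = 0.574), while PSAP, the saposin precursor, and CD63 stood at 1049 ± 241 against 861 ± 96.8 CPM and at 177 ± 20.6 against 160 ± 30.4 CPM. The 34 glycosidases, lipases and sulfatases had 19 negative and a median of -0.11, which turned to 0.02 without siANXA1 replicate 1, with GLA at 62.0 ± 8.85 and 83.3 ± 7.36 CPM, PPT1 at 171 ± 30.2 and 187.5 ± 8.69 CPM and ASAH1 at 140.5 ± 34.3 and 120 ± 17.9 CPM. The 6 other peptidases had 4 negative (DPP7 40.2 ± 1.57 and 43.7 ± 3.43 CPM, PRCP 54.9 ± 7.28 and 43.0 ± 9.54 CPM, SCPEP1 25.8 ± 6.89 and 20.5 ± 5.11 CPM).

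The 16 subunits of the V-ATPase, the proton pump that acidifies the lysosome, had 5 negative and a median of 0.09, which was -0.01 without siControl replicate 1. ATP6V1F, the most abundant per length, stood at 193 ± 10.2 and 223.5 ± 10.5 CPM, ATP6V1E1 at 129 ± 36.6 and 137 ± 12.3 CPM and ATP6V0C at 102 ± 18.4 and 131 ± 32.0 CPM. MiT/TFE factors drive lysosomal gene expression, and of the list of 8 such factors and their regulators, 5 were negative and 0 passed. TFE3 stood at 66.7 ± 18.3 and 57.8 ± 11.1 CPM, FLCN at 41.2 ± 7.30 and 47.1 ± 10.01 CPM and FNIP1 at 62.2 ± 10.6 and 59.4 ± 5.82 CPM. No list held a gene called by edgeR.

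**Figure D5:**
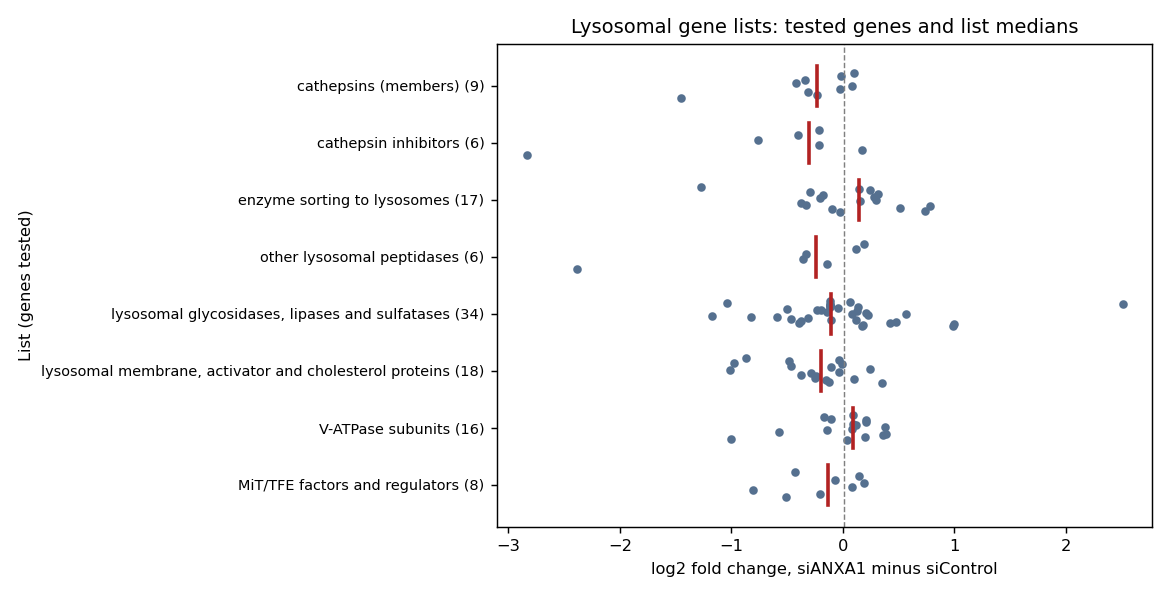
Log2 fold change of siANXA1 against siControl for the tested genes of 8 lists (points), with each list's median (red line) and the median of all genes tested (dashed line); the number tested stands in brackets. Medians lie between -0.31 and 0.14, and CTSS is the lowest point of the cathepsin list.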

How the data were processed

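Values deposited by the authors are estimated counts for each transcript, as whole numbers without normalization; that they are estimates was read from the values. They came in an annotated and an unannotated version, whose 1335690 values are identical. Details of alignment, counting and strandedness were not given in the sources used here. Per the submitters' processing notes the build was mm10, of mouse, but the deposited annotation is human on GRCh38. Left out of sums and tests were 16014 transcripts with no gene, which held 16.9% to 17.7% of the counts in a library.

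Counts were summed per gene. The test was edgeR 4.0.16 in R 4.3.3, with filterByExpr, TMM, robust glmQLFit and glmQLFTest. It used group alone and was two-sided, with Benjamini-Hochberg over 17947 genes and a threshold of 0.05. The procedure was also run on simulated counts. These held no variation shared between genes within a library, so they cannot show how the test performs on the present libraries. CPM are TMM-scaled. Levels per length used the deposited transcript lengths. SE are the fold change over the root of the F statistic. Alternatives were other scalings, filters and features, DESeq2 1.42.0, voom in limma 3.58.1, a replicate block and each library left out. Start regions came from RefSeq and transcripts from GENCODE release 29.

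Members and lists were chosen with earlier results of these data known. Named genes were ANXA1, all members, other detected cathepsins, in each list the genes called or else the 3 tested with the highest level per length, and the genes most like CTSS (5), CTSC and CTSL (3 each) by Pearson r (log2 CPM, prior count 2). DDIT4, MT-ND4, GLB1, NEU1, LGMN and the markers were named after their values were seen.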

Additional observations from a re-analysis of the deposited data

How the results depend on the processing

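The log2 fold change of CTSS ranged from -1.66 to -1.30 when a library was left out and from -1.52 to -1.42 under the other alternatives. CTSS was chosen for its fall in these same libraries, so its negative sign under all 17 alternatives is a description and no test. The other 8 members passed the threshold under none of the alternatives. In direction, 11 of 153 member values differed, all small and all when a library was left out: CTSA ranged from -0.39 to 0.0195, CTSC from -0.13 to 0.0885, CTSD from -0.0415 to 0.30, CTSL from -0.14 to 0.0377 and CTSZ from -0.0487 to 0.42. CTSB, CTSF and CTSH kept their direction. With a library left out CTSB ranged from -0.58 to -0.09, CTSF from -0.81 to -0.14 and CTSH from -0.67 to -0.18. Under the other alternatives CTSB ranged from -2.38, with the most abundant transcript, to -0.31. There CTSF ranged from -0.65 to -0.30 and CTSH from -0.49 to -0.33, and CTSL reached -0.17 with coding transcripts alone. The members whose groups did not overlap numbered 1 to 4 when a library was left out: CTSD and CTSS without siControl replicate 1, CTSF, CTSL, CTSS and CTSZ without siControl replicate 3, and CTSH and CTSS without siANXA1 replicate 2; these fits compare 2 libraries with 3. Over all genes, against 2 called higher and 0 lower, DESeq2 called 119 and 139. The number lower was 1 with no filter, the strict filter, limma-voom or the most abundant transcript, and 3 with the unannotated rows included. The number higher was 0 with coding transcripts alone, the most abundant transcript or the replicate block, and leaving out a library gave 0 to 4 higher and 0 to 3 lower. The cause was not tested. Of 233 list medians, 15 moved by more than the spread between libraries, among them that of the sorting genes, which ranged from -0.09 to 0.15 when a library was left out, and that of the glycosidases, lipases and sulfatases, from -0.13 to 0.02. Same-numbered libraries did not deviate together throughout (r = -0.11, 0.26 and 0.26 for numbers 1 to 3), and siControl replicate 1 lay closest to siANXA1 replicate 2 (0.23). The values for numbers 2 and 3 were the highest of any pair, so these correlations cannot settle whether the numbers pair the libraries. With the replicate block 0 members were called, the same as without it.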
